A study of Mus musculus with 12 samples.

Results

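Small nucleolar RNAs (snoRNAs) are short non-coding RNAs of the nucleolus, and the genes described here are the mouse snoRNA genes that a whole-transcript array measured in activated CD4+ T cells. A gene was taken if it had a probe set with exactly 1 platform symbol of the form Snora or Snord followed by a digit, and a gene with more than 1 such probe set was represented by the one with the highest mean over the 12 arrays. That gave 50 of the 19752 measured genes, 20 named Snora and 30 named Snord, and the rule uses symbols and mean levels alone. The gene table of RefSeq matched all 50 and types each as a snoRNA except Snord73b, which it types as an snRNA. Another 19 probe sets whose annotation pairs a snoRNA symbol with a further symbol were left out, because the gene behind their signal is not settled.

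Spleen CD4+ T cells of 6-week-old male C57BL/6 mice, enriched by depletion of the other cells, were the source of all 12 arrays. Cells cultured with interleukin-12 (IL-12) at 100 U/ml gave 4 arrays after 8 h and 5 arrays after 2 h, and their controls were 2 arrays of untreated cells at 2 h and 1 array labelled baseline. Activation with CD3/28 beads for 48 h preceded IL-12, and the series' text does not say separately how the untreated and baseline cells were handled. Sample titles carry numbers, 2, 3, 5 and 6 for IL-12 8 h, 2 to 6 for IL-12 2 h, 7 and 8 for untreated cells and 5 for baseline. No label says what a number stands for or that samples came from separate mice, so the p-values rest on a spread that may be partly technical. Numbers 2 to 4 (5 arrays) and 5 to 8 (7 arrays) are called the low run and the high run, and all arrays without IL-12 lie in the high run.

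SnoRNAs act as guides that pair with a target RNA and bring an enzyme to 1 of its nucleotides. C/D snoRNAs, the Snord genes, lead the methyltransferase fibrillarin to ribose sites, and H/ACA snoRNAs, the Snora genes, lead the pseudouridine synthase dyskerin to uridines, mostly in ribosomal RNA. A few, among them U8 (Snord118), U17 (Snora73a and Snora73b) and, in frog oocytes, U22 (Snord22), are needed for cutting the ribosomal RNA precursor. Most vertebrate snoRNAs are trimmed out of introns of host genes, and many hosts make ribosomal proteins or other parts of the translation machinery, whose need rises when T cells are activated and grow. Many host transcripts start with a C followed by a run of pyrimidines, a 5′ terminal oligopyrimidine tract.

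Nearly all of the 50 genes were nested in other genes. By the RefSeq gene table, in which a gene's strand is not recorded, 49 lay within the span of another gene, Snord118 being the exception. A total of 46 lay in exactly 1 gene, and these 46 shared 37 holding genes, of which 9 held 2 members each. The holding gene was protein-coding for 36 of the 46 and a long non-coding RNA for 10, and it encoded a ribosomal protein for 20. Annotated lengths ran from 61 to 205 nucleotides for Snora genes (median 125) and from 53 to 148 for Snord genes (median 69.5).

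Starts of host genes are shown here for members whose signal differed between untreated and baseline cells, because the tract lies at the start. Each line runs from 10 bases before to 50 bases after the annotated start on the gene's own strand (RefSeq, GRCm38.p6), with capitals marking each CTTT, a short pyrimidine string that such tracts often hold. The starts belong to Rps12 (chr10:23787160-23787219, minus strand, host of Snora33), Ncl (chr1:86359406-86359465, minus strand, host of Snora75), Snhg12 (chr4:132308668-132308727, plus strand, host of Snora44), Snhg1 (chr19:8723477-8723536, plus strand, host of Snord22) and Rpl23 (chr11:97782390-97782449, minus strand, host of Snora21).
Rps12: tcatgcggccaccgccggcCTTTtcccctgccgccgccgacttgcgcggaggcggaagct
Ncl: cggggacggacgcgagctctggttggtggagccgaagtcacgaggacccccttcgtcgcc
Snhg12: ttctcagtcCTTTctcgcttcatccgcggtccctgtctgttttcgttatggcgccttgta
Snhg1: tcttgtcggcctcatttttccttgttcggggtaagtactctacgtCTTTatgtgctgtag
Rpl23: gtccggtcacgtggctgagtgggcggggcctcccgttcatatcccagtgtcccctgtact
The string began at position -1 of Snhg12, at position 10 of Rps12 and at position 36 of Snhg1, counted from 1 at the annotated start, and was not in the windows of Ncl and Rpl23. Such windows held CTTT in 21.5% and its reverse complement AAAG in 21.5% of all 32851 starts that RefSeq lists. Of the 30 starts listed for 29 of the holding genes, 16 (53.3%) held CTTT and 2 held AAAG, as a description with no test. A match of letters is not a tract or a site, and a window without them says nothing about how the gene is controlled.

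Values are log2 intensities of the authors' normalized arrays. SnoRNA genes were among the brighter genes, with 41 of the 50 above the median of all gene means (7.37) and 9 below it. Mean log2 intensity over the 12 arrays ran from 6.98 to 13.4 for Snora genes (median 9.95) and from 5.06 to 12.9 for Snord genes (median 9.68). Probe sets differ in how brightly they report the same amount of RNA, so these levels order the probe sets and not the RNAs. The brightest were Snora52, Snord57, Snord49b, Snord104 and Snora7a, and the dimmest were Snord61, Snord38a, Snord58b, Snord73a and Snord37. In 3 genes a further probe set could be read, and for Snora3 it lay only 0.03 ± 0.01 log2 units lower (SD over 12 arrays), against 0.26 ± 0.03 for Snord58b and 0.49 ± 0.08 for Snora21.

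The cells carried CD4 T cell markers at a mean log2 intensity between 11.96 and 12.22 on every array. Markers of macrophages and monocytes, 13 of 15 measured, averaged 6.59 to 6.73 on the low-run arrays, against 6.78 to 7.14 on the high-run arrays. Lyz2, lysozyme of myeloid cells, lay between 6.66 and 7.28 in the low run and between 7.65 and 9.93 in the high run. No marker was at 0 on this scale, and the part that other cells had in the snoRNA values was not tested.

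SnoRNA genes varied more between replicate arrays than other genes did. Their residual SD around group and run had a median of 0.232 log2 units (0.277 for Snora, 0.219 for Snord), against 0.102 for all genes, and 49 of the 50 lay above that all-gene median. Genes brighter than the median gene had a median residual SD of 0.102 too. The members therefore needed larger differences to pass a test than most genes did.

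Much of that spread ran together across the members. Their mean log2 intensity on the 4 IL-12 8 h arrays was 9.32, 9.44, 9.19 and 9.69 (numbers 2, 3, 5 and 6). On the 5 IL-12 2 h arrays it was 9.56, 9.43, 9.53, 9.20 and 9.18 (numbers 2 to 6), on the untreated arrays 9.14 and 9.28, and on the baseline array 9.34. The IL-12 8 h array numbered 6 stood above all others, and the low-run 2 h arrays stood above the high-run 2 h arrays. That 8 h array was the highest of its group for 37 of the 50 genes, and the 8 h array numbered 5 was the lowest for 28, while over all genes the array numbered 6 was the highest for 21.8% and the array numbered 5 the lowest for 17.6%. A further 8 small RNA genes outside the rule were Rmrp, Rn7sk, Rnu12, Rnu3a, Rnu7, Rny1, Rny3 and Terc. They averaged 10.56 on the 8 h array numbered 6, against 9.95 to 10.06 on the other 3 arrays of its group. Rmrp was not higher there (12.55, against 12.55, 12.66 and 11.89 on numbers 2, 3 and 5), while each of the others had its highest value of the group there. On the IL-12 2 h array numbered 4 the same 8 genes averaged 10.53.

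**Figure D1:**
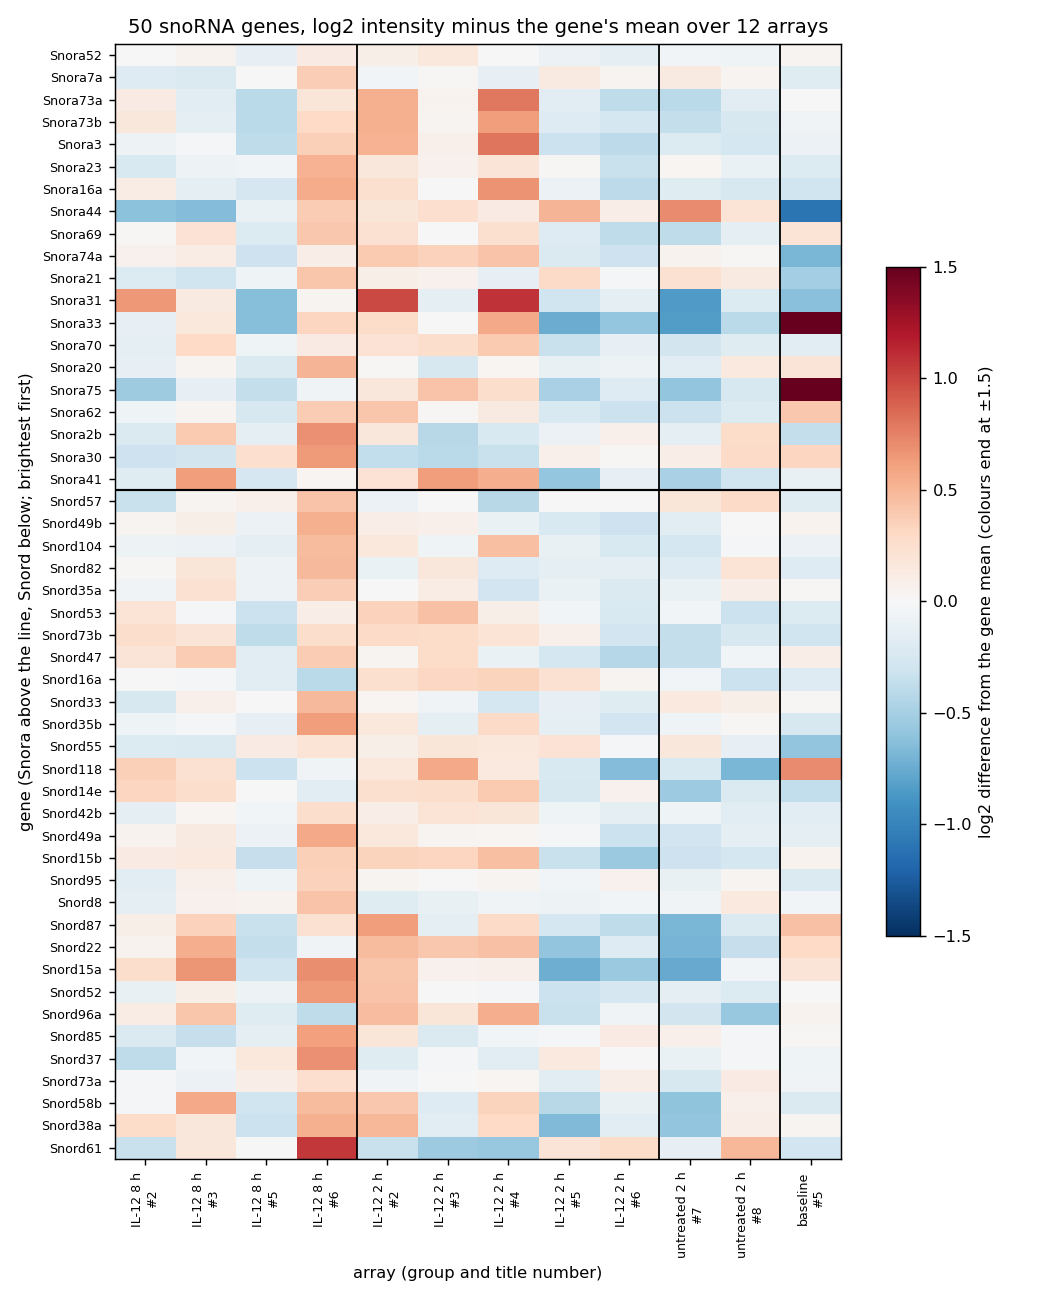
Log2 intensity of each of the 50 snoRNA genes (rows, Snora above the line, brightest first in each class) on each of the 12 arrays (columns, by group and title number), as the difference from the gene's mean over 12 arrays. A mostly red column for the IL-12 8 h array numbered 6 and dark single cells for Snora33 and Snora75 on the baseline array stand out.

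**Figure D2:**
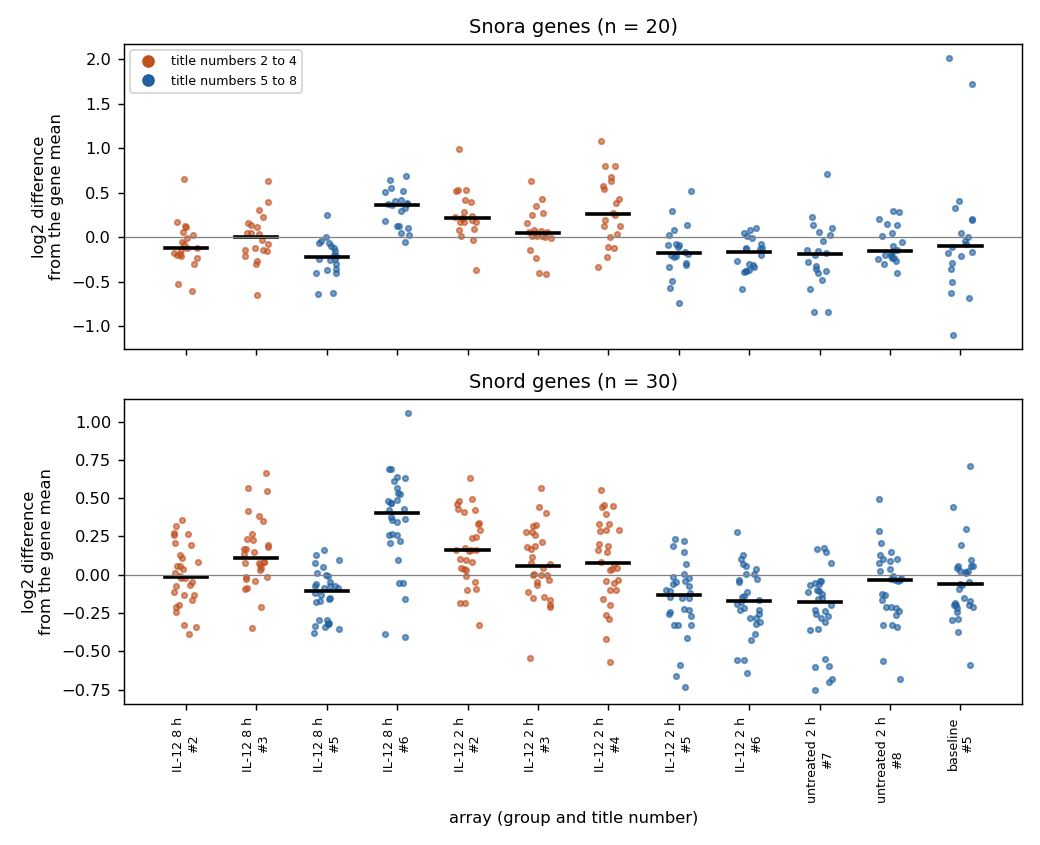
Difference of each snoRNA gene from its 12-array mean (log2 units, 1 point a gene, bar at the median) on each array, for Snora genes above and Snord genes below, coloured by title number run. The IL-12 8 h array numbered 6 has the highest median in both classes, 0.36 for Snora and 0.40 for Snord.

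Comparing IL-12 8 h with untreated cells asks about IL-12 together with a longer culture, and comparing IL-12 2 h with untreated cells asks about IL-12 at a matched time. In neither did any snoRNA gene pass limma's test (adjusted p under 0.05 over all genes). Of all genes 3.16% were called in the 8 h comparison (1.04% higher, 2.13% lower) and 0.0709% in the 2 h comparison (0.0709% higher, 0% lower). At an unadjusted p under 0.05, 2 members were higher and 1 lower at 8 h, and 2 were higher and 0 lower at 2 h. Of all genes 7.06% were higher and 7.48% lower at that threshold at 8 h, and 2.73% and 2.19% at 2 h. The median log2 difference from untreated cells was 0.09 for Snora and 0.15 for Snord genes at 8 h, and 0.10 and 0.09 at 2 h, against -0.01 and -0.003 for all genes. Both comparisons use the same 2 untreated arrays, and without the 8 h array numbered 6 the 8 h Snora median was -0.15, with 2 members called lower.

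The smallest p belonged to Snord14e in the 8 h comparison and to Snord16a in the 2 h comparison. Snord14e, a U14 gene in introns of the chaperone gene Hspa8, had 10.12, 10.07, 9.79 and 9.64 at IL-12 8 h, 10.04, 10.06, 10.19, 9.56 and 9.87 at IL-12 2 h, and 9.25 and 9.58 in untreated cells. All 4 arrays at 8 h lay above both untreated arrays, and 1 array at 2 h lay between them. Its fitted log2 difference from untreated cells was 0.30 ± 0.11 (SE, adjusted p = 0.205) at 8 h and 0.30 ± 0.11 (adjusted p = 0.908) at 2 h. Snord16a (U16) differed by 0.29 ± 0.10 at 2 h (adjusted p = 0.877). After Snord14e at 8 h came Snora44, which was lower (-0.49, adjusted p = 0.248). Snord37 (0.38, adjusted p = 0.273) and Snord49a (0.34, adjusted p = 0.369) followed, both higher. After Snord16a and Snord14e at 2 h came Snord37 (0.26) and Snord96a (0.24), each with an adjusted p of 0.999.

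From 2 h to 8 h of IL-12, 2 of the 50 genes passed the test, both lower at 8 h, which is 4% of the members, where 12.6% of all genes were called (6.27% higher, 6.36% lower). The 2 members with the next smallest p were higher at 8 h and did not pass the test. They were Snord47 (log2 0.32, adjusted p = 0.0889) and Snord15a (0.53, adjusted p = 0.0981). Leaving out the 8 h array numbered 5 gave 2 members called higher, and leaving out the 2 h array numbered 3 gave 1. Snord16a, the U16 gene in an intron of the ribosomal protein gene Rpl4, had 10.50, 10.50, 10.36 and 10.11 at IL-12 8 h (numbers 2, 3, 5 and 6), against 10.75, 10.83, 10.85, 10.75 and 10.55 at IL-12 2 h (numbers 2 to 6). Every 8 h array lay below every 2 h array. It was 1.28-fold lower at 8 h, a log2 difference of -0.36 ± 0.08 (adjusted p = 0.00628), and it was lower within the low run (-0.31 ± 0.09, adjusted p = 0.0422) and within the high run (-0.42 ± 0.10, adjusted p = 0.0250). With title numbers as a replicate block it differed by -0.35 (adjusted p = 0.0170). It was lower and called with any 1 array left out, and it lost its call in the fit to arrays numbered 5 to 8 alone (adjusted p = 0.174). Snord16a was among the 3 members for which the 8 h array numbered 6, the highest for 37 members, was the lowest of its group.

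Snora44 shares its non-coding host Snhg12 with Snora16a. It had 9.92, 9.88, 10.43 and 10.90 at IL-12 8 h (numbers 2, 3, 5 and 6), against 10.71, 10.77, 10.65, 11.04 and 10.63 at IL-12 2 h (numbers 2 to 6). The low-run 8 h arrays lay below every 2 h array, and the high-run 8 h arrays did not all do so. It was 1.44-fold lower at 8 h (log2 -0.52 ± 0.14, adjusted p = 0.0291), and the difference was -0.82 ± 0.13 in the low run (adjusted p = 0.00143), against -0.17 ± 0.15 in the high run (adjusted p = 0.612). The replicate block ended the call (adjusted p = 0.112), as did leaving out the 8 h array numbered 2, 3 or 5 (adjusted p = 0.112, 0.130 and 0.0720) or the 2 h array numbered 2, 3, 4 or 5 (adjusted p = 0.0688, 0.0694, 0.0633 and 0.0612). Snora16a differed by -0.002 over the same arrays.

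The Snora median of the 8 h against 2 h difference was -0.01 and the Snord median 0.11, beside -0.009 for all genes. The runs taken separately gave medians of opposite sign. In the low run the medians were -0.25 for Snora and -0.04 for Snord genes, and in the high run they were 0.24 and 0.30. The high-run medians rested on the 8 h array numbered 6, which lay above the mean of the high-run 2 h arrays by a median of 0.49 for Snora and 0.55 for Snord genes. For the 8 h array numbered 5 those medians were -0.02 and 0.08, so the opposite sign of the Snora medians was not seen with that array alone. In the test of that difference between runs (1.96% of all genes called, 0.972% with a larger and 0.987% with a smaller difference in the low run) 0 members passed in limma's fit, and 17 of the 50 had an unadjusted p under 0.05, all of them with a smaller 8 h minus 2 h difference in the low run, where 6.48% of all genes had such a p in that direction. The sign was the same for 48 of the 50 and for 52.7% of all genes, with medians of -0.47 for Snora and -0.28 for Snord genes. Snora75 (-0.75 ± 0.20, adjusted p = 0.0849) had the smallest p. Within the low run 4 members were called lower and 0 higher at 8 h (12.6% of all genes called, 6.52% higher and 6.11% lower), namely Snora44, Snora75, Snord55 and Snord16a. Within the high run 1 was called higher, Snora30, and 1 lower, Snord16a (6.47% of all genes called, 2.29% higher and 4.17% lower), and the high run holds the 8 h array numbered 6.

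**Figure D3:**
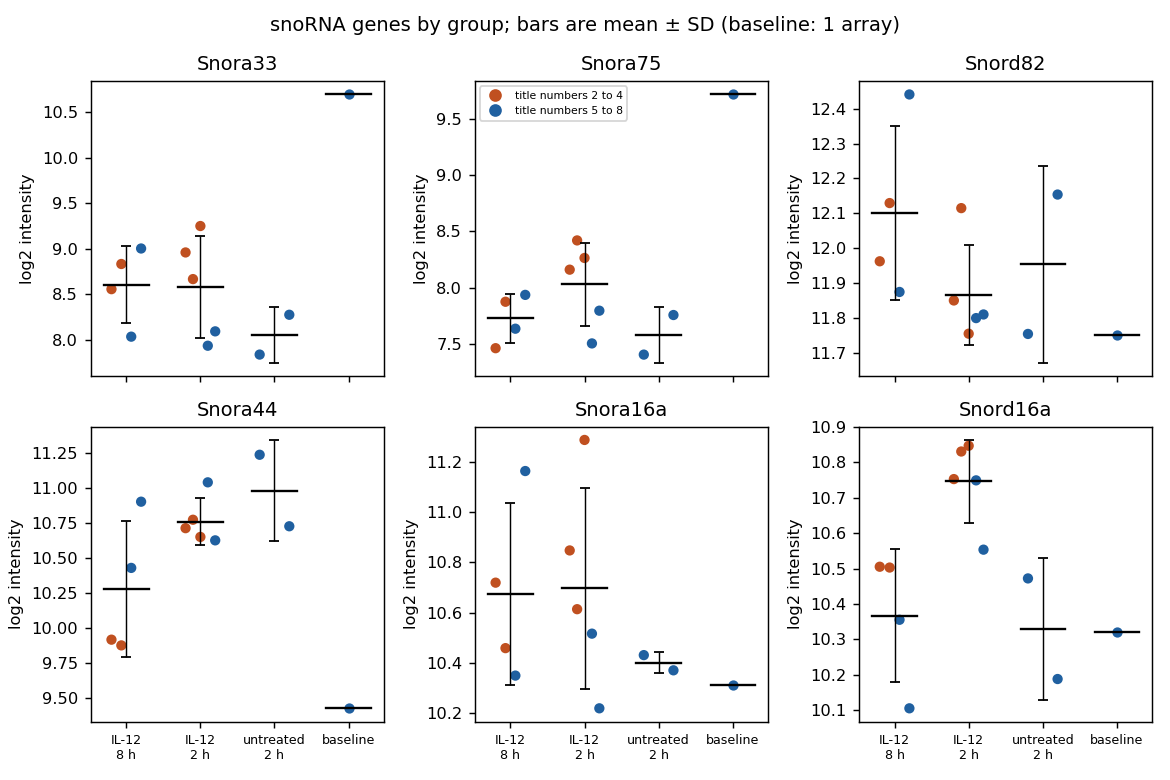
Log2 intensity of 6 snoRNA genes by group (points are arrays, coloured by title number run; bars are mean ± SD, with 1 array at baseline). Snora33 and Snora75 stand alone at baseline (10.69 and 9.71), Snora44 is lowest there (9.43), and Snord16a at IL-12 8 h lies below IL-12 2 h on all arrays.

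Untreated cells at 2 h set against the baseline array held the single members with the largest fitted differences of the 5 comparisons. They rest on 2 arrays against 1, with the spread taken from the other groups. A total of 8 members passed the test, 4 higher and 4 lower in untreated cells, which is 16% of members, where 10.2% of all genes were called (6.28% higher, 3.96% lower). By class, 3 Snora and 1 Snord were higher and 2 Snora and 2 Snord lower. The medians stayed near 0, at -0.11 for Snora and -0.006 for Snord genes, against -0.03 for all genes.

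Snora33 and Snora75 were the members with the largest falls. Snora33, held by the ribosomal protein gene Rps12, had 7.84 and 8.28 in untreated cells, against 10.69 at baseline, and the 11 arrays other than baseline lay between 7.84 and 9.25. It was 6.21-fold lower in untreated cells (log2 -2.63 ± 0.36, adjusted p = 0.000389). Snora75 (U23), held by the nucleolin gene Ncl, had 7.41 and 7.76 in untreated cells, against 9.71 at baseline, with the 11 other arrays between 7.41 and 8.42. It was 4.39-fold lower (log2 -2.13 ± 0.26, adjusted p = 0.000206). For both genes the baseline array stood above every other array by more than a log2 unit, and both kept their call in each alternative fit. Such a position was not particular to snoRNA genes. The baseline array lay above all others for 3 of the 50 members, and for 12.6% of all genes. It lay below all others for 7 of the 50 members, and for 9.63% of all genes.

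The hosts of Snora33 and Snora75, and the snoRNA that shares a host with Snora75, did not pass the test. Rps12, a protein of the small ribosomal subunit, had 12.10 and 12.36 in untreated cells, against 12.66 at baseline, a log2 difference of -0.43 ± 0.16 (adjusted p = 0.108). Ncl, the major nucleolar phosphoprotein nucleolin, had 12.50 and 12.67 in untreated cells, against 12.82 at baseline, a difference of -0.23 ± 0.11 (adjusted p = 0.247). Snord82, a C/D snoRNA held by the same Ncl gene as Snora75, had 11.75 and 12.15 in untreated cells, against 11.75 at baseline, and differed by 0.20 (adjusted p = 0.639). Within the Ncl gene, then, 1 snoRNA was lower in untreated cells, while the host and the other snoRNA did not pass the test, and the differences between them were not tested.

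The other members lower in untreated cells were Snord118 and Snord22. Snord118 (U8), which is transcribed from a promoter of its own, had 9.58 and 9.13 in untreated cells, against 10.52 at baseline, a log2 difference of -1.16 ± 0.22 (adjusted p = 0.00389). Its baseline value was the highest of the 12, although IL-12 arrays of the low run reached 10.38. Snord22 (U22), held by the non-coding Snhg1, had 7.22 and 7.58, against 8.22 at baseline (-0.82 ± 0.22, adjusted p = 0.0276), and its IL-12 arrays ran up to 8.47. These values depend on the run in which the baseline array belongs. With baseline placed in the low run, Snord118 differed by -0.55 (adjusted p = 0.482) and Snord22 by -0.14 (adjusted p = 0.940).

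Higher in untreated cells were Snora44, Snora74a, Snora21 and Snord55. Snora44 had 11.24 and 10.73, against 9.43 at baseline, which was the lowest of the 12 arrays (1.56 ± 0.26, 2.94-fold, adjusted p = 0.00173). Snora16a, beside it in Snhg12, had 10.43 and 10.37, against 10.31 at baseline, a difference of 0.09 (adjusted p = 0.915). Of the pair in Snhg12, Snora44 passed the test and Snora16a did not. Snora74a (U19), held by the non-coding Snhg4, had 10.30 and 10.26, against 9.56 at baseline (0.72 ± 0.17, adjusted p = 0.0169). Snora21, held by Rpl23, had 9.89 and 9.80, against 9.15 (0.69 ± 0.19, adjusted p = 0.0290), where Rpl23 itself differed by -0.10 ± 0.11 (adjusted p = 0.665). Snord55, a C/D snoRNA gene, had 10.14 and 9.84, against 9.38 (0.61 ± 0.16, adjusted p = 0.0308). Without the untreated array numbered 7, 1 member and not 4 was called higher. Snord55, Snora21 and Snora74a then had adjusted p of 0.148, 0.0986 and 0.0604, and Snord22 had 0.135. A fit with no run term ended all 4 of the higher calls (adjusted p = 0.0820 for Snora44, 0.323 for Snora74a, 0.237 for Snora21 and 0.186 for Snord55), as well as those of Snord118 (0.229) and Snord22 (0.443). With the run as a random block Snora74a (adjusted p = 0.0674), Snora21 (0.0596), Snord55 (0.0529) and Snord22 (0.122) lost their calls, and a further quantile normalization ended those of Snora21 (0.0543) and Snord55 (0.0605). With baseline placed in the low run, Snora44 (adjusted p = 0.107), Snora21 (0.535) and Snord55 (0.384) lost theirs.

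Some markers of other cells also differed in this comparison, where 6.28% of all genes were called higher and 3.96% lower. Among macrophage and monocyte markers 2 of 13 rose in untreated cells, Lyz2 (log2 2.13 ± 0.32, adjusted p = 0.000700) and Cd68, and the list averaged 6.99 and 7.14 there, against 6.78 at baseline. Of 3 erythroid and platelet markers 2 were lower, the platelet genes Ppbp and Pf4, and the list averaged 6.77 and 7.19, against 8.58. Of 5 B cell markers 2 were lower, Ms4a1 and Pax5, and the list averaged 7.30 and 7.27, against 7.83. Of 5 NK cell markers 2 were higher, and of 2 CD8 T cell markers 1 was. Fewer cells of a type and less RNA per cell cannot be told apart in such bulk samples, and the part of other cells in the snoRNA differences was not tested.

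**Figure D4:**
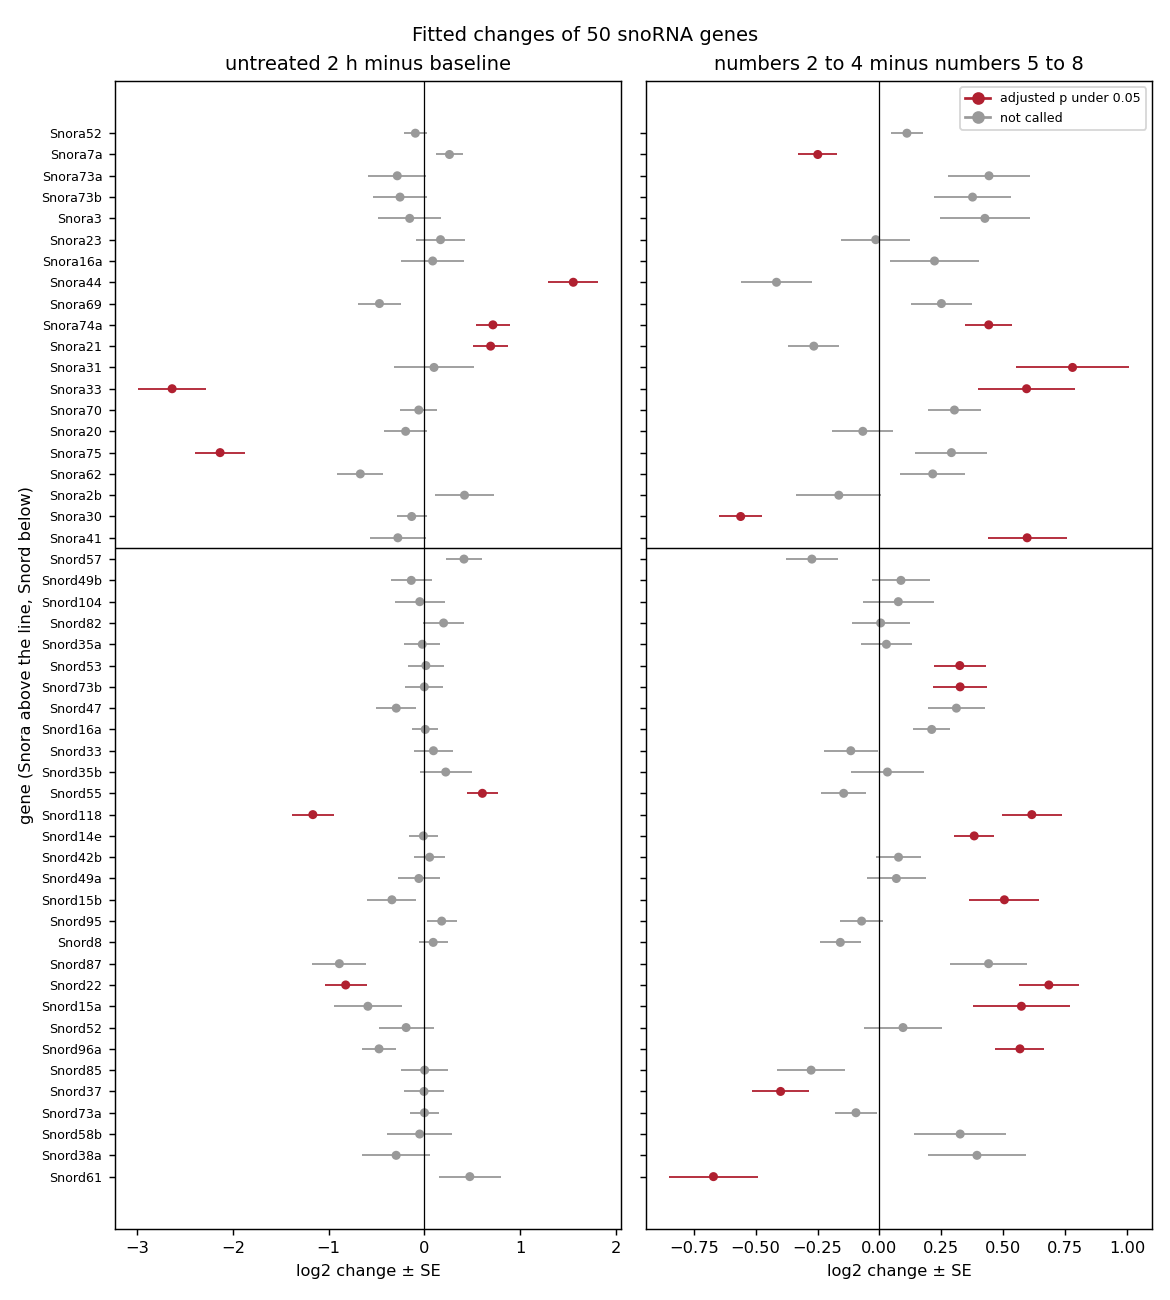
Fitted log2 difference ± SE of each of the 50 snoRNA genes for untreated 2 h minus baseline (left) and for numbers 2 to 4 minus numbers 5 to 8 (right), with genes at adjusted p under 0.05 in red. On the left 8 genes are red with Snora33 (-2.63) and Snora75 (-2.13) far from the rest, and on the right 16 are red.

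The title number runs differed in more snoRNA genes than any pair of groups did. In the 12-array fit 12 members were higher and 4 lower in numbers 2 to 4 than in numbers 5 to 8, which is 32% of members, where 24.3% of all genes were called (11.8% higher, 12.5% lower). The median log2 difference was 0.24 for Snora and 0.08 for Snord genes, against 0.04 for all genes. Since all arrays without IL-12 lie in the high run, this difference is estimated within the IL-12 groups. It is not known what the numbers stand for, so it is a measured difference between sets of arrays and no more.

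Higher in the low run were Snora31, Snord22, Snord118, Snora41, Snora33, Snord15a, Snord96a, Snord15b, Snora74a, Snord14e, Snord73b and Snord53, with log2 differences of 0.32 to 0.78. Snora31, held by the translationally controlled tumour protein gene Tpt1, ran from 8.88 to 10.11 with a median of 9.68 on the 5 low-run arrays, against 8.18 to 9.07 with a median of 8.73 on the 7 high-run arrays. The runs overlapped by 1 low-run array, and the fitted difference was 0.78 ± 0.23 (adjusted p = 0.0244). Snord14e lay between 10.04 and 10.19 (median 10.07) in the low run, against 9.25 to 9.87 (median 9.58) in the high run, without overlap (0.38 ± 0.08, adjusted p = 0.00367). Snord96a, held by Rack1, lay between 7.55 and 7.99 (median 7.85), against 6.87 to 7.49 (median 7.17), also without overlap (0.57 ± 0.10, adjusted p = 0.000940), where Snord95 of the same host differed by -0.07 (adjusted p = 0.571).

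Lower in the low run were Snord61, Snora30, Snord37 and Snora7a. Snora30, held by the chromatin remodeller gene Srcap, ran from 6.78 to 6.92 (median 6.86) in the low run, against 7.21 to 7.83 (median 7.44) in the high run, and no array of a run reached into the other. Its log2 difference was -0.56 ± 0.09 (adjusted p = 0.000365). Snord61, held by the splicing regulator gene Rbmx, ran from 4.49 to 5.23 (median 4.72), against 4.77 to 6.11 (median 5.25), with overlap (-0.67 ± 0.18, adjusted p = 0.0151). The hosts of both were also lower in the low run, Srcap by -0.35 ± 0.07 (adjusted p = 0.00205) and Rbmx by -0.52 ± 0.06 (adjusted p = 3.32e-05).

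More members passed the test between runs at 2 h than at 8 h, in unlike sets of arrays. Within IL-12 2 h, 18 members were higher and 2 lower in the low run (22.1% of all genes called, 9.77% higher and 12.3% lower), with medians of 0.49 for Snora and 0.30 for Snord genes. The U17 genes illustrate it. Snora73a had 12.05, 11.58 and 12.32 on the low-run 2 h arrays, against 11.36 and 11.15 on the high-run 2 h arrays, without overlap (0.73 ± 0.20, adjusted p = 0.0188), and Snora73b differed by 0.64 ± 0.19 (adjusted p = 0.0319). Within IL-12 8 h, 2 members were higher and 5 lower (12.4% of all genes called, 5.52% higher and 6.91% lower), with medians of -0.06 for Snora and -0.13 for Snord genes, and Snora73a differed by 0.10 (adjusted p = 0.820). Whether the run difference depends on time is the same term as whether the time difference depends on the run, for which 0 members passed.

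The number of run calls depended on the arrays. Without the IL-12 8 h array numbered 6 it was 24 higher, and without the 8 h array numbered 5, or the 2 h array numbered 2, 5 or 6, it was 7 higher in each case. Without the 8 h array numbered 2, 2 members were lower. The shares of all genes called in those fits are not given here, so the counts cannot be set against them. Among macrophage markers 6 of 13 were lower in the low run and 0 higher, where 12.5% of all genes were lower and 11.8% higher. The part of these markers in the snoRNA difference was not tested.

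Comparing a snoRNA with the gene that holds it was possible for 26 members and 23 holding genes in which the table gives 1 holding gene with values, or a known snoRNA host. Between untreated cells and baseline 12 of the 26 pairs had the same sign. There 3 of the 26 members and 1 of the 23 holding genes were called, where 10.2% of all genes were, and no pair was called on both sides. Between runs 18 of 26 had the same sign, and 11 of the 26 members and 7 of the 23 holding genes were called, where 24.3% of all genes were. Called on both sides were 6 pairs, among them Snord15a and Snord15b, which share Rps3. The absolute log2 difference between a member and its holding gene had a median of 0.26 for untreated cells against baseline and 0.24 for the runs. Pairs are not replicates, since some share a holding gene.

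**Figure D5:**
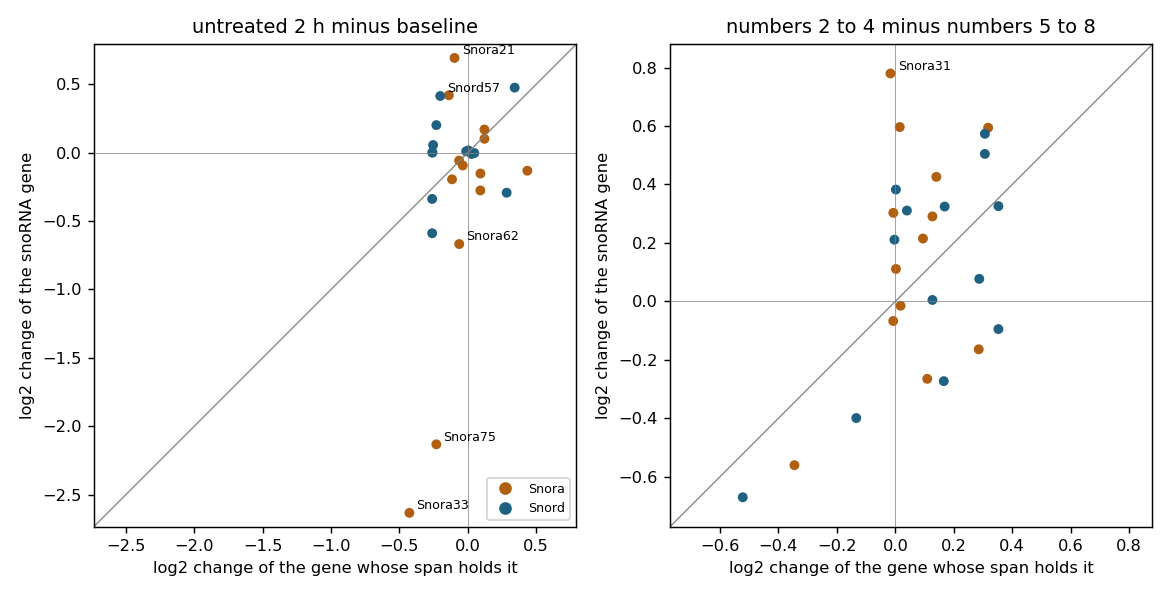
Log2 difference of each of 26 snoRNA genes (vertical) against that of the gene whose span holds it (horizontal), for untreated 2 h minus baseline (left) and numbers 2 to 4 minus numbers 5 to 8 (right), with the line of equal difference. Snora33 and Snora75 lie far below the line on the left, and Snora31 lies far above it on the right.

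Transcripts of the proteins that carry snoRNAs were measured on the same arrays. The H/ACA core proteins, dyskerin (Dkc1), Nop10, Nhp2 and Gar1, and the C/D core proteins, fibrillarin (Fbl), Nop56, Nop58 and Snu13, had 0 of 8 genes called in each IL-12 comparison, and in each of these 0 had an unadjusted p under 0.05. Nop10 was lower in untreated cells than at baseline (-0.47 ± 0.14, adjusted p = 0.0493), with 11.19 and 11.25 in untreated cells against 11.69 at baseline, and the other 7 did not pass the test. Between runs Nop10 (0.41 ± 0.08, adjusted p = 0.00174), Nop58 (0.36 ± 0.10, adjusted p = 0.0234) and Snu13 (0.20 ± 0.05, adjusted p = 0.0147) were higher in the low run, 3 of 8, where 24.3% of all genes were called. Of 14 assembly and transport factors, 3 were lower at IL-12 8 h than at 2 h and 1 higher, where 6.36% of all genes were lower and 6.27% higher. The lower ones were Naf1, an H/ACA assembly factor (-0.40 ± 0.08, adjusted p = 0.00338), Tgs1, which makes the trimethylguanosine cap, and Nolc1, a nucleolar chaperone of snoRNPs, and the higher one was Pih1d1, a subunit of the R2TP assembly complex. Of 5 non-coding host genes with values, Snhg16 was lower at 8 h (-0.42 ± 0.10, adjusted p = 0.0137). Of 63 genes with a symbol Rps or Rpl, which are ribosomal protein genes apart from a few such as Rps19bp1, limma called 0 in each IL-12 comparison, with 7 at an unadjusted p under 0.05 for 8 h against 2 h, 1 for 8 h against untreated cells and 0 for 2 h against untreated cells. At that threshold 24.0%, 14.5% and 4.92% of all genes passed in these 3 comparisons. Of the 63 genes 3 were lower in untreated cells than at baseline, where 3.96% of all genes were. In the low run 20 of the 63 were higher and 0 lower, where 11.8% of all genes were higher and 12.5% lower. Of 3 Scarna genes, whose RNAs guide modification in Cajal bodies, 0 were called by limma in the IL-12 comparisons and for untreated cells against baseline, where 0 had an unadjusted p under 0.05 either, and 1 was lower in the low run.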

How the data were processed

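Each of 12 samples was hybridised to 1 whole-transcript Affymetrix array. The deposited table holds linear intensity for 24922 probe sets, and per the submitters' processing notes RMA and Affymetrix Power Tools (no version given) made it. RMA subtracts background, gives all arrays the same distribution and summarises the probes of a set, so a shift shared by all genes would not show. The genome build is not given in the sources used here. Array medians lay between 160.6 and 167.3, the number of arrays limits the precision, and 0 columns belonged to other samples.

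Intensities were log2-transformed without further normalization. Of the probe sets 21425 had 1 symbol, 1399 several and 2098 none, and 1 probe set a gene (the brightest) left 19752 genes. All 12 arrays entered 1 fit by limma 3.58.1 (lmFit, then eBayes, under R 4.3.3), whose terms were the 4 groups and the run of title numbers, 2 to 4 or 5 to 8 (7 residual and 6.84 prior degrees of freedom). A second model tested whether the 8 h against 2 h difference depended on the run, on the 9 IL-12 arrays alone. Tests were two-sided and p-values were adjusted by Benjamini and Hochberg's method across the 19752 genes, with calls made under 0.05. The fit was tested on simulated data. Plots were made in Python 3.11.15 (matplotlib 3.10.9).

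The members, the lists and the rule for naming genes were chosen with earlier results of these data known. The rule named up to 6 called rises and 6 called falls per comparison (otherwise the 4 smallest p), a panel of 18 genes of which 11 were members, the 8 core proteins, the 5 brightest and 5 dimmest members and the outlying ones. SnoRNAs that share a host with a named member were added for that reason, after their values had been seen. A list of replication-dependent histone genes matched 0 genes. Per list, counts and medians are given with no list test. Holding genes come from gene spans of the RefSeq table (GRCm38.p6) without strand, so its coordinates were used only to see which genes overlap, and printed positions belong to the RefSeq promoter table.

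Title numbers 2, 3, 5 and 6 occur at both IL-12 times. Same-numbered arrays deviated together from their group means over all genes (r = 0.36, 0.30, 0.52 and 0.37), but no longer once the run was removed (r = -0.26, -0.18, 0.03 and 0.03). In the high run numbers 5 and 6 are the only arrays at each IL-12 time, so their values after that step are equal by construction. Whether a shared number marks a pair is not settled, and the replicate block is given as an alternative. Alternatives were no run term, the run as a random block, arrays 5 to 8 alone, the replicate block, all probe sets averaged, dim genes left out, log2 of intensity plus 16, a further quantile normalization, array weights, an intensity trend, each array left out and the baseline array moved to the low run. Arrays 2 to 4 alone was added after the data were seen.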

Additional observations from a re-analysis of the deposited data

Results flagged for a closer look

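Within the groups of 4 and 5 arrays, 104 sets of values were checked for an array far from the others, and 6 snoRNA values stood out by Dixon's criterion, where chance alone marks about 1 in 20. On the IL-12 8 h array numbered 6, Snord104 had 12.5, against 11.92 to 11.98 on the other arrays of its group, and Snord35b had 10.7, against 9.90 to 9.99. On the IL-12 8 h array numbered 5, Snora74a had 9.94, against 10.30 to 10.35, and Snord73b had 10.5, against 11.1 to 11.2. On IL-12 2 h arrays, Snord57 had 12.4 on the array numbered 4, against 12.76 to 12.86 on the other 4, and Snord82 had 12.1 on the array numbered 3, against 11.76 to 11.85.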

How the results depend on the processing

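Members called lower at 8 h than at 2 h numbered 2 in the fit reported, 1 with no run term, 1 with the run as a random block, 1 with the replicate block, 0 with arrays 5 to 8 only and 7 with arrays 2 to 4 only (added after the data were seen). With arrays 5 to 8 only the medians were 0.24 for Snora and 0.30 for Snord genes, and with arrays 2 to 4 only the Snora median was -0.25 and Snora23, 0.02 in the fit reported, was -0.30 (adjusted p = 0.0245). The replicate block changed no call but that of Snora44. For untreated cells against baseline, members called higher numbered 4 in the fit reported, 0 with no run term, 1 with the random block, 2 with a further quantile normalization and 1 with baseline placed with numbers 2 to 4. Members called lower there numbered 4, then 2 with no run term and 2 with baseline placed with numbers 2 to 4, when the Snora median was 0.16. Between runs, members called lower numbered 4, and 2 with dim genes left out, which removes members from the test. Leaving out 1 array at a time, the members called lower in IL-12 8 h against untreated cells ranged from 0 to 2 and the Snora median from -0.15 to 0.16. In IL-12 8 h against 2 h they ranged from 0 to 2 higher and from 1 to 2 lower, in untreated cells against baseline from 1 to 4 higher and from 3 to 6 lower, and between runs from 7 to 24 higher and from 2 to 6 lower. Other values of named members kept direction and side of the threshold in 2242 cases, lost the call in 63, gained it in 20 and turned sign in 1. Here and above, counts of members called in an alternative fit stand without the share of all genes called in that fit. Whether snoRNA genes changed more than other genes did between fits can therefore not be read from them. The cause of these changes was not tested. Comparisons with the 2 untreated arrays and the 1 baseline array take their spread largely from the other groups.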

Other observations

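The 19 probe sets whose annotation pairs a snoRNA symbol with another symbol had mean log2 intensities between 4.20 and 12.6 (median 9.20), and 12 lay above the median of all gene means. Their difference of untreated cells minus baseline had a median of -0.02 and ran from -0.76 to 0.52, so none showed a fall of the size seen for Snora33 and Snora75. Between the low run and the IL-12 arrays of the high run their median difference was -0.11, with 7 of 19 higher in the low run. The 19 carry 15 distinct sets of symbols, so some report the same locus. The widest differences belonged to 4 probe sets annotated Snord116l2, Snord116l1 and Gm26504, which were lower in the low run by log2 differences of -1.52 to -1.72 and were singled out after their values had been seen.

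Genes with a symbol of Mir followed by a digit numbered 288, mostly microRNA precursor genes, with long host genes such as Mir17hg among them. Of these, 4 were called at IL-12 8 h against 2 h (2 higher, 2 lower), where 12.6% of all genes were called (6.27% higher, 6.36% lower). At IL-12 2 h 1 was called higher than in untreated cells, where 0.0709% of all genes were. Between untreated cells and baseline 7 differed (2 higher, 5 lower), where 10.2% of all genes did (6.28% higher, 3.96% lower). Between runs 22 were higher and 21 lower in numbers 2 to 4, where 24.3% of all genes were called (11.8% higher, 12.5% lower). The 288 genes had a mean log2 intensity of 5.65 to 5.73 on each array, below the median of all gene means (7.37). The part of this low level in the shares called was not tested.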
